A study of Mus musculus with 35 samples.

Results

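Pou5f1, Sox2, Nanog, Sall4, Utf1 and Tead4 were followed across the mouse epiblast and epiblast-like cultures by bulk RNA sequencing. They are 6 of the 54446 genes measured, 20774 of them autosomal and protein-coding. They were picked by gene symbol and not by a cut on their values, although earlier results of these data were known at the time. All 6 are among the autosomal protein-coding genes, and all 6 passed the filter on low values in the embryos and in the cultures. The study set a self-renewing 3D culture of epiblast stem cells (EpiSCs) beside the embryo and beside established cultures of pluripotent cells. The 27 libraries used here are 3 for each of 5 embryo stages and 3 for each of 4 cultures, out of 35 samples in the series, and the single-cell and bisulfite samples were not analysed here.

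The embryo groups were the inner cell mass (ICM) at E3.5 and then the epiblast at 4 stages (E4.5, on day E5.5, on day E6.5, and at E7.5), labelled as untreated, wild-type, of the outbred CD-1 strain and male/female (the sex of single embryos was not determined). The study's methods name matings of CD1 or of Pdgfrα:H2B-GFP mice, and the E4.5 epiblast was picked with this reporter, so that genotype and stage may differ together at E4.5 and cannot be told apart. Each library pooled several embryos. The ICM was dissected with a laser, the E4.5 epiblast was picked after immunosurgery as cells negative for a Pdgfra reporter of primitive endoderm, and later epiblasts were cut free of visceral endoderm and extra-embryonic ectoderm, with the allantois also removed at E7.5. The cultures were wild-type as well. ESC-derived and embryo-derived 3D EpiSCs grew in Matrigel with FGF2, Activin-A, the tankyrase inhibitor XAV and the BMP antagonist Noggin, starting from embryonic stem cells (ESCs) and from E5.5 epiblasts. The study's ESC lines included wild-type E14, and its embryo-derived lines came from CD1 and LifeAct-GFP embryos, while the labels do not say which of them were sequenced. The 2D EpiSCs were converted from ESCs in FGF2 and a lower dose of Activin-A, so that medium and dimension changed together between 2D and 3D. Epiblast-like cells (EpiLCs) were ESCs kept for 48 h in FGF2 and Activin-A. Embryo-derived 3D EpiSCs also differed in origin from the 2D EpiSCs and EpiLCs, and origin, medium and dimension cannot be told apart in those comparisons.

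The products of Pou5f1 (the POU factor Oct4), Sox2 (an HMG-box factor) and Nanog (a homeobox factor) bind together at enhancers of pluripotent cells, Oct4 and Sox2 often side by side on a joint DNA element, and they regulate their own genes as well as each other's. Sall4 is a zinc-finger protein that binds many of the same sites and recruits the NuRD deacetylase complex, and Utf1 is a chromatin-bound protein of undifferentiated embryonic cells whose gene is a target of Oct4 and Sox2. Tead4 differs in kind: it is the DNA-binding partner of the Hippo effectors Yap and Taz and is needed to specify the trophectoderm, the outer layer of the blastocyst.

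On mm10, Pou5f1 lies on chromosome 17 (35506018 to 35510772, plus strand), Sox2 on chromosome 3 (34650405 to 34652461, plus) and Nanog on chromosome 6 (122707489 to 122714633, plus). Sall4 lies on chromosome 2 (168748332 to 168767943, minus), Utf1 on chromosome 7 (139943789 to 139945112, plus) and Tead4 on chromosome 6 (128224288 to 128300823, minus). Sox2 has a single exon and Utf1 has 2, whereas Tead4 has 14 merged exons over 76536 bases. RefSeq promoter windows on GRCm38.p6, from 250 bases before to 50 bases after a start site, were found for 4 of the 6 genes, namely Pou5f1 and Nanog (2 windows each), Sox2 and Utf1. Searched on both strands for the octamer core TTTGCAT, the Sox core ACAAT, the octamer core followed within 3 bases by ACAA on the same strand, and the TEAD core GGAATG, the Nanog windows held the joined octamer and Sox element and the Sox2 window an octamer core alone. The joined element stood from base -75 to base -64 of the first Nanog window, and the Sox core overlapped its end. These windows are shown because Oct4 and Sox2 are known to act through such elements, with the matched bases in capitals. The Nanog window is chr6:122707239-122707538, plus strand, and the Sox2 window is chr3:34649745-34650044, plus strand. The start site of the Sox2 window lies upstream of the gene start given above, which the window does not reach.
Nanog: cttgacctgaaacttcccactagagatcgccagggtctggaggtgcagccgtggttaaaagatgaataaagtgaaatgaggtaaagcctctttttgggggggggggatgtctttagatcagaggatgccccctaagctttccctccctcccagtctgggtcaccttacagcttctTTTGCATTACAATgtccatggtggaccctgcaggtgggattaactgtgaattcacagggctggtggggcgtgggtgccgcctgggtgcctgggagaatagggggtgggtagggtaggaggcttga
Sox2: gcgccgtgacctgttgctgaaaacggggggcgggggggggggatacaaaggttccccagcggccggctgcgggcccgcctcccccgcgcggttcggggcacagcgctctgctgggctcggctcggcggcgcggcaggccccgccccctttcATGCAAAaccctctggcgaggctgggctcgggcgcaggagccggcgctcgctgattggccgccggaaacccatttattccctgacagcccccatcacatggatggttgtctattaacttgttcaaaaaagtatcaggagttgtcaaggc

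The joined element was in 33 of the 32851 windows of the same length (0.1%), the octamer core in 4.63%, the Sox core in 31% and the TEAD core in 14.7%. The second Pou5f1 window held a Sox core, the first Pou5f1 window and the Utf1 window held none of the 4 motifs, and the TEAD core was in no window of these genes. A match describes the letters of a window and not the binding of a factor.

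Values were in TPM, a share of all transcripts scaled for gene length, so that levels may be compared between genes. The study sequenced all of these libraries to the same stated depth, but TPM keeps no read counts from which a library's own depth could be read. Between 20324 and 26751 genes had a TPM above 0 in the embryo libraries and between 22215 and 24438 in the culture libraries. Embryo and culture libraries were made with different kits, so their levels are given side by side without a test. Within a kit, groups were compared with limma on log2(TPM + 1), with calls made where the absolute log2 fold change exceeded 1 and the p, adjusted by Benjamini-Hochberg, was under 0.05. "Rose" and "fell" are used for called genes, and other differences are given as values. Some culture libraries were nearly alike, with a median absolute log2 difference of 0.061 between ESC-derived 3D EpiSC replicates 1 and 2, 0.057 between embryo-derived 3D EpiSC replicates 2 and 3, and 0.065 between 2D EpiSC replicates 1 and 2. ESC-derived 3D EpiSC replicate 3 stood apart from its group, at 0.271 and 0.269.

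The dissected tissues were checked against markers. All 6 epiblast identity markers (Pou5f1, Fgf5, Otx2, Pou3f1, Dnmt3b and Cdh1) were above 2 TPM in every library of all groups except the ICM, where 4 of 6 were. Markers of neighbouring tissues were also present in the embryo libraries. Trophectoderm and extra-embryonic ectoderm markers (10 genes) summed to 3213.3 to 3280.0 TPM at E3.5 and 2960.9 to 3138.7 TPM at E4.5, against 413 to 443 TPM at E5.5, 567 to 633 TPM at E6.5 and 888 to 934 TPM at E7.5. Primitive and visceral endoderm markers (12 genes) summed to 765 to 791 TPM at E3.5, 320 to 363 TPM at E4.5 and 891 to 1470.9 TPM from E5.5 on, with a mean Afp of 81 TPM at E5.5, 119 TPM at E6.5 and 100 TPM at E7.5. In the cultures Afp and Ttr were at or below 0.09 TPM on average, and Cdx2 was at or below 0.17 TPM. Other members of the same lists were present, with Foxa2 at means of 27.5 to 74.5 TPM and Eomes at 35.5 to 77.9 TPM in the 3 EpiSC cultures, and in 2D EpiSCs Sox17 at 25 TPM, Gata6 at 21.5 TPM, Krt8 at 316 TPM and Krt18 at 336 TPM.

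**Figure D1:**
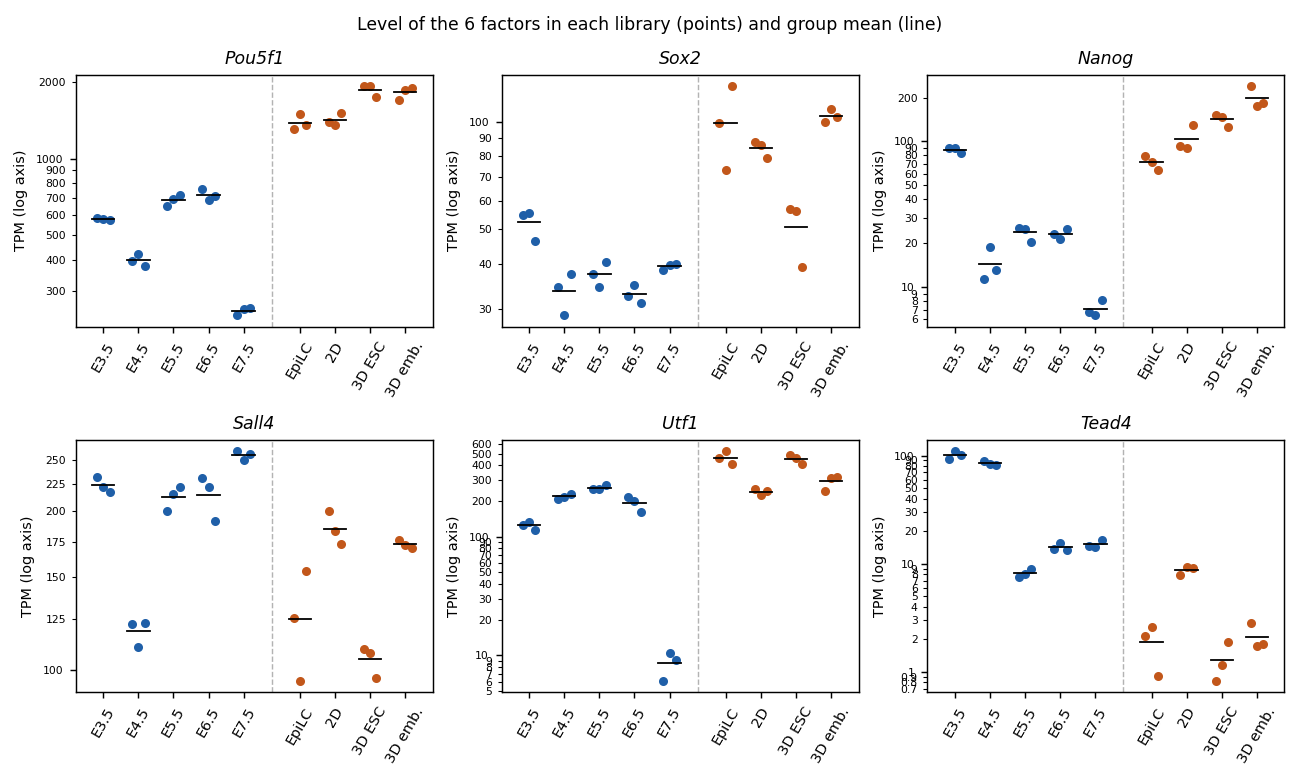
Level of each factor in TPM (log axis) in every library, as points, with the mean of each group as a line, for 5 embryo stages (blue) and 4 cultures (orange), which were made with different kits. Pou5f1 was the most abundant of the 6 in all but the E7.5 group, Utf1 dropped from 160 to 215 TPM at E6.5 to 6.13 to 10.4 TPM at E7.5, and Tead4 from 81.4 to 89.9 TPM at E4.5 to 7.51 to 8.92 TPM at E5.5.

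In the embryo, 4 of the 6 factors were called at 1 step or more, and Sox2 and Sall4 at none. From E3.5 to E4.5, Nanog fell and the other 5 were not called, against 17.8% of the 11880 genes tested. From E4.5 to E5.5, Tead4 fell alone, against a background of 24.4%. From E5.5 to E6.5 none of the 6 was called by limma, against 1.20% of genes. From E6.5 to E7.5, Pou5f1, Nanog and Utf1 fell, 3 of 6 where 12.6% of genes were called. In these bulk samples, fewer cells of a type and less RNA per cell cannot be told apart. RNA of the E3.5 and E4.5 samples was fragmented under other conditions than that of later stages, so at the step from E4.5 to E5.5 fragmentation and stage cannot be told apart.

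Pou5f1, the marker that runs through every pluripotent state, was at 584, 577 and 575 TPM in the 3 E3.5 libraries, at 393, 420 and 378 TPM at E4.5, and at 648, 692 and 722 TPM at E5.5. At E6.5 it was at 759, 689 and 716 TPM, and at E7.5 at 241, 255 and 258 TPM. It was thus lowest at E7.5, next lowest at E4.5, and the E5.5 and E6.5 libraries overlapped. From E6.5 to E7.5 it fell by 1.52 on the log2 scale (SE 0.076, adjusted p = 3.02e-09), 2.86-fold. The dip to E4.5 was smaller, at -0.54 (adjusted p = 4.01e-05), and the difference between E5.5 and E4.5 was 0.79 (adjusted p = 7.6e-07). Both had libraries that did not overlap, and neither reached 1 log2 unit. By rank among the 20774 protein-coding genes, the median place of Pou5f1 was 129 at E3.5 and 391 at E7.5.

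Sox2, the partner of Oct4 on joint elements, varied least of the 6 over the stages. Its libraries were at 54.9, 55.6 and 46.2 TPM at E3.5 and at 34.5, 28.7 and 37.4 TPM at E4.5, a difference of -0.63 (SE 0.107, adjusted p = 0.000237). It was then at 37.5, 34.5 and 40.4 TPM at E5.5, at 32.6, 34.9 and 31.2 TPM at E6.5, and at 38.4, 39.8 and 39.9 TPM at E7.5. The E3.5 libraries lay above all others, and neighbouring groups in the order of the 4 later stages overlapped. Over the stages, the highest group mean of Sox2 was 1.59-fold the lowest, against 2.87-fold for Pou5f1, 12.4-fold for Nanog, 30.1-fold for Utf1, 12.4-fold for Tead4 and 2.16-fold for Sall4. At E7.5, when Pou5f1 and Nanog fell, Sox2 differed from E6.5 by 0.25 (95% interval 0.022 to 0.484, adjusted p = 0.061), and by -0.08 once libraries were rescaled by median-of-ratios factors. The rescaling matters here because the median of all genes moved by 0.314 between these stages in the deposited TPM and by 0.006 after it.

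The balance of Pou5f1 to Sox2 within a library does not depend on how whole libraries are scaled. It was 11.2 ± 1.13 (SD, n = 3) at E3.5, 12 ± 2.33 at E4.5, 18.4 ± 1.45 at E5.5 and 22 ± 1.96 at E6.5, and 6.38 ± 0.108 at E7.5. The E7.5 libraries, at 6.27 to 6.49, lay below every other library. The ratio of Pou5f1 to Nanog went from 6.59 ± 0.248 at E3.5 to 28.7 ± 6.27 at E4.5 and then stayed between 22.3 and 39.8 in all later libraries, the spread within E4.5 alone being 22.3 to 34.8. Sox2 exceeded Nanog from E4.5 on, with a ratio of 0.594 ± 0.0359 at E3.5 and 5.61 ± 0.657 at E7.5.

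**Figure D2:**
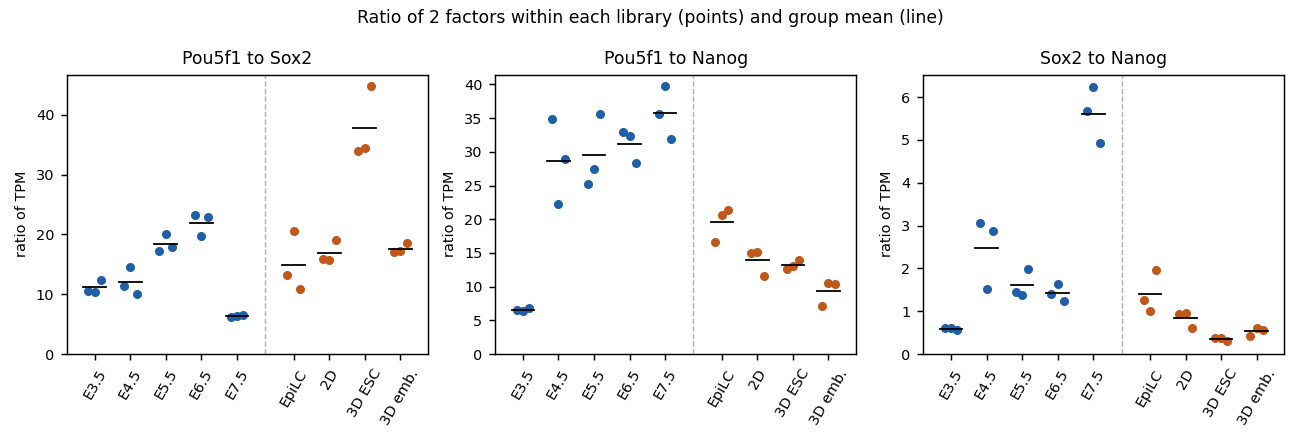
Ratio of the TPM of a pair of factors within each library (points) and its group mean (line), for embryo stages (blue) and cultures (orange). Pou5f1 to Sox2 lay below all other embryo libraries at E7.5 (6.27 to 6.49), and was 34 to 44.8 in ESC-derived 3D EpiSCs, above every other library.

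Nanog, which marks the naive epiblast of the blastocyst and returns in the primitive streak region, had the lowest levels of the core trio at all stages but E3.5. It was at 90.1, 89.9 and 83.6 TPM at E3.5 and at 11.3, 18.9 and 13.1 TPM at E4.5. This was a fall of 2.56 on the log2 scale (SE 0.155, adjusted p = 1.15e-08), 5.89-fold, with libraries far apart. Libraries were at 25.6, 25.2 and 20.3 TPM at E5.5 and at 23.1, 21.2 and 25.2 TPM at E6.5, overlapping each other and all above E4.5, with a difference between E5.5 and E4.5 of 0.70 (adjusted p = 0.00142). At E7.5 Nanog was at 6.76, 6.39 and 8.10 TPM, lower than at E6.5 by a log2 fold change of -1.58 (SE 0.155, adjusted p = 2.75e-06), 2.99-fold. Beside the first of these falls, the 4 germ cell precursor markers summed to 340 to 395 TPM at E3.5 and 33 to 37.4 TPM at E4.5, nearly all of it from Dppa3 (means 355 and 34.1 TPM), which is also a maternal transcript, while Prdm1 was at 0.792 and 0.637 TPM, Prdm14 at 5.86 and 0.983 TPM, and Nanos3 at 0.202 TPM and listed at 0. The primitive endoderm marker Gata6 had a mean of 118 TPM at E3.5 and 8.64 TPM at E4.5. Its list of endoderm markers as a whole summed to 765 to 791 TPM and 320 to 363 TPM. Within that list Dab2 had means of 238 and 168 TPM and Amn of 29.8 and 23.7 TPM. Cubn went the other way, from 48.7 to 91.9 TPM, and Ttr was at 0 and 0.911 TPM. The part of these transcripts and their cells in the fall of Nanog was not tested.

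Utf1 had the largest absolute change of the 6 at any step between stages. Its libraries were at 125, 132 and 115 TPM at E3.5, at 208, 217 and 228 TPM at E4.5 and at 250, 251 and 272 TPM at E5.5, its highest stage. They were at 215, 200 and 160 TPM at E6.5 and at 6.13, 10.4 and 9.13 TPM at E7.5. The last step was a fall of 4.35 on the log2 scale (SE 0.153, adjusted p = 9.78e-11), 20.4-fold, the 20th largest absolute change of the 11880 genes tested. The step from E3.5 to E4.5 was 0.81 (adjusted p = 0.000548), with libraries that did not overlap but less than 1 log2 unit, and the difference between E6.5 and E5.5 was -0.44 (adjusted p = 0.0848). While Utf1 and Pou5f1 both fell at E7.5, Pou5f1 kept a mean of 251 TPM and Utf1 one of 8.56 TPM.

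Markers of other cell types also changed at E7.5, in both directions. The 8 primitive streak and mesoderm markers summed to 172 to 212 TPM at E6.5 and 274 to 293 TPM at E7.5, and the number of them above 2 TPM in all 3 libraries went from 5 to 8, with Msgn1 at a mean of 0.04 and 74.8 TPM. T, Tbx6, Hand2 and Kdr also had higher means at E7.5. The means of Mixl1, Mesp1 and Lhx1 went down, from 53.7, 57.3 and 44 TPM to 5.33, 14.1 and 7.06 TPM. The 6 neural ectoderm markers summed to 1.43 to 2.03 and 14.6 to 19.6 TPM, and the epiblast identity markers, which include Pou5f1, to 2629.1 to 3037.1 and 936 to 978 TPM. Their part in the falls of Pou5f1, Nanog and Utf1 was not tested.

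Sall4, the NuRD-binding zinc-finger factor, had its lowest level at E4.5. It was at 233, 222 and 217 TPM at E3.5 and at 122, 111 and 123 TPM at E4.5, a log2 fold change of -0.91 (SE 0.086, adjusted p = 9.74e-07) that stopped short of a call although the libraries did not overlap. It was at 200, 216 and 222 TPM at E5.5, 0.84 above E4.5 (adjusted p = 1.54e-06), and at 231, 222 and 191 TPM at E6.5, overlapping E5.5. At E7.5 it was at 260, 250 and 257 TPM, the highest of the 5 stages. That last difference was 0.25 (adjusted p = 0.0244) in the deposited TPM and -0.09 after rescaling, so its direction rests on the scaling. At E7.5 the libraries of Sall4 and Pou5f1 overlapped, with means of 256 and 251 TPM.

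Tead4 was a gene of the preimplantation stages in these data. It was at 93.1, 109 and 101 TPM at E3.5 and at 89.9, 82.6 and 81.4 TPM at E4.5, a difference of -0.25 (adjusted p = 0.0384). At E5.5 it was at 7.51, 8.03 and 8.92 TPM, a fall of 3.23 on the log2 scale (SE 0.096, adjusted p = 6.49e-12), 9.36-fold. It was then at 13.8, 15.4 and 13.3 TPM at E6.5, above all E5.5 libraries by a log2 fold change of 0.73 (adjusted p = 0.000429), and at 14.5, 14.2 and 16.5 TPM at E7.5. The last difference, 0.08 (adjusted p = 0.483), became -0.24 after rescaling. Tead4 thus had means of 101 and 84.6 TPM before implantation and of 8.16 to 15.1 TPM after it.

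The trophectoderm markers, whose cells depend on Tead4, all had lower means at E5.5 than at E4.5, as Tead4 did. At other steps they did not all follow it. Krt18 and Krt8, keratins of simple epithelia, made up most of their sum, with means of 1666.1 and 787 TPM at E4.5 and 219 and 118 TPM at E5.5. The defining factors Cdx2 and Elf5 had means of 161 and 49.7 TPM at E3.5, 23.7 and 127 TPM at E4.5, and 2.86 and 3.93 TPM at E5.5. From E3.5 to E4.5, the mean of Cdx2 went from 161 to 23.7 TPM while Tead4 was not called. Gata3, Krt8 and Krt18 had lower means at that step too. Those of Tfap2c, Krt7 and Hand1 went up, from 39.8, 6.01 and 1.17 TPM to 122, 53.1 and 29.6 TPM. From E6.5 to E7.5, where Tead4 was not called, Cdx2 went from 5.27 to 56.7 TPM and Hand1 from 9.73 to 82 TPM. Eomes went from 160 to 4.1 TPM. The part of trophectoderm RNA in the level of Tead4 was not tested.

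**Figure D3:**
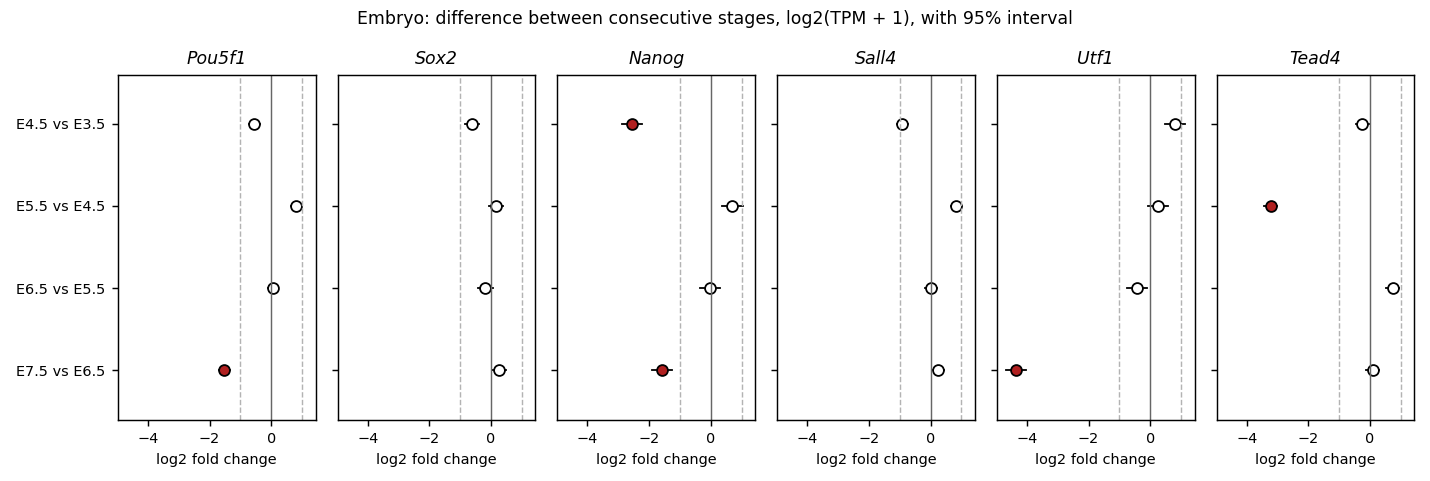
Log2 fold change of each factor between consecutive stages, on log2(TPM + 1), with its 95% interval as a bar. Filled points are called and open points are not, and the dashed lines mark 1 log2 unit in either direction. The called changes are falls, of Nanog at E4.5 (-2.56) and E7.5 (-1.58), of Tead4 at E5.5 (-3.23), and of Pou5f1 (-1.52) and Utf1 (-4.35) at E7.5.

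Relatives of the factors were measured too. Of 11 genes of the POU, Sox, Sall and Tead families, 10 were tested in the embryo (Sox3 is X-linked and was not). From E3.5 to E4.5, 4 rose and none fell, the median log2 fold change being 0.11 against -0.10 over all genes, of which 17.8% were called. They were Pou3f1 (3.41), the POU factor of the postimplantation epiblast, Sall2 (1.90), Sall3 (1.42) and Tead3 (1.33). From E4.5 to E5.5, when Tead4 fell and 24.4% of all genes were called, 4 rose and 2 fell (median 0.23 against 0.16), with Tead2 up by 2.64, Sall2 by 3.36 and Pou3f1 by 2.25, and Sox15 at -2.67. Tead2 had a mean of 26.6 TPM at E4.5 and 169 TPM at E5.5, so the order of Tead4 and Tead2 was 84.6 above 26.6 TPM before the step and 8.16 below 169 TPM after it. None was called from E5.5 to E6.5 by limma, against 1.20% of all genes, and 4 of 10 had an unadjusted p below 0.05. From E6.5 to E7.5, where 12.6% of all genes were called, 3 rose and 2 fell (median 0.41 against 0.31), with Sox1 at 1.92, Tead1 at 1.67, Sall3 at 1.36 and Pou3f1 at -2.54. Sox1 passed the filter on low values only through the E7.5 libraries (3.41 to 4.13 TPM). It was at or below 0.47 TPM in every earlier library, so its call was largely set by that filter. Pou5f1 had a higher mean than Pou2f1 and Pou3f1 in all 9 groups, and Sall4 a higher mean than Sall1, Sall2 and Sall3, Sall1 coming closest in EpiLCs with 123 against 125 TPM.

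**Figure D4:**
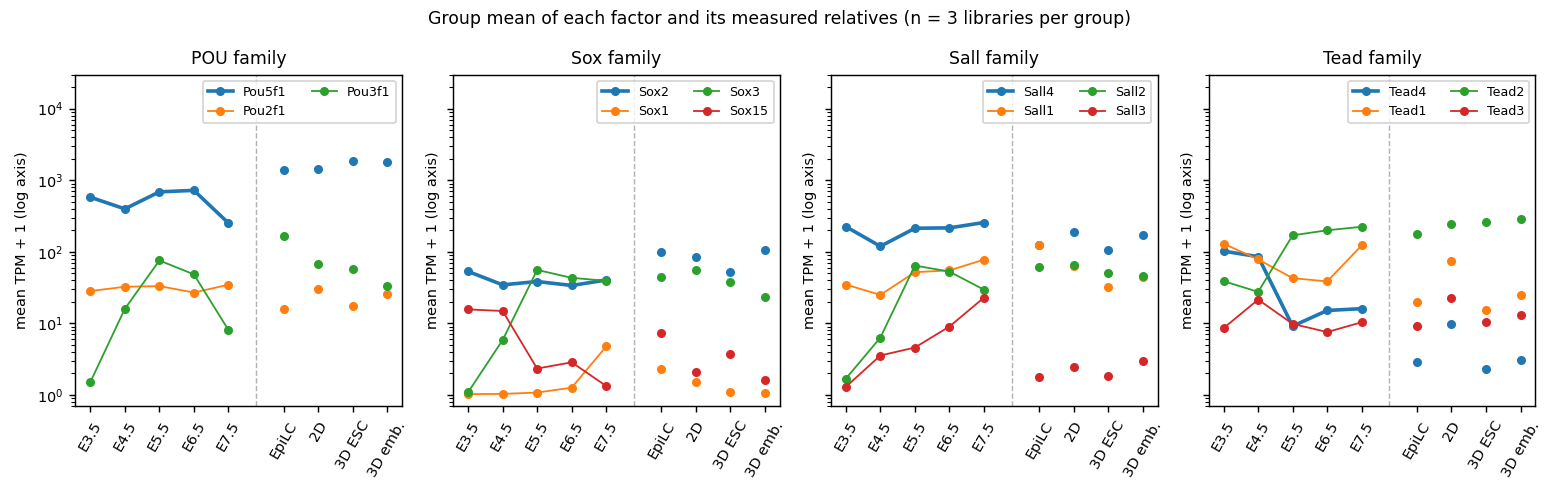
Group means (n = 3 libraries each) of the 4 factors with measured relatives and of those relatives, as TPM + 1 on a log axis, with embryo stages joined by lines and cultures to the right of the dashed line. Tead2 rose from 26.6 to 169 TPM between E4.5 and E5.5 while Tead4 fell from 84.6 to 8.16 TPM, and the means of Sall4 and Pou5f1 were above those of their relatives in every group.

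Among 10 genes with well-known enhancers bound by Oct4 and Sox2, 9 were tested. At E4.5, 3 fell (Fbxo15 at -1.98, Spp1 at -1.86 and Klf4 at -1.10), with a median of -0.75 against -0.10 over all genes, of which 17.8% were called. At E5.5, all 9 were called, 8 lower and 1 higher, with a median of -2.85 against 0.16 over all genes, of which 24.4% were called. Klf2 changed by -5.52, Fbxo15 by -4.75, Klf4 by -3.67 and Spp1 by -3.34, and Lefty1, an inhibitor of Nodal, rose by 1.21. At this step Pou5f1 and Sox2 were not called and differed by 0.79 and 0.16. At E6.5, Dppa4 (-1.65) and Fgf4 (-1.23) fell, with a median of -0.16 against -0.06 over all genes, of which 1.20% were called. At E7.5, when Pou5f1 fell, 5 of 9 fell and none rose (median -1.29 against 0.31), where 12.6% of all genes were called. The largest changes were in Tdgf1, the Nodal co-receptor, at -5.80, Lefty1 at -3.64, Esrrb at -3.39 and Dppa4 at -2.88.

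Of 20 partner proteins of Oct4, Nanog and Sall4, NuRD subunits among them, 19 were tested. None was called by limma at E4.5 or at E6.5, against 17.8% and 1.20% of all genes. At these steps 10 and 7 of 19 had an unadjusted p below 0.05. At E5.5, 3 rose (Mta1 by 2.31, Zscan10 by 1.41 and Smarca4 by 1.02), with a median of 0.36, where 24.4% of all genes were called, and at E7.5 Chd3 rose by 1.05 and L1td1 fell by 2.11, with a median of 0.10, where 12.6% were. Of 20 coactivators of Tead proteins and genes of the Hippo pathway, 17 were tested. At E4.5, where 17.8% of all genes were called, 3 rose (Ankrd1 by 3.04, Amotl1 by 2.87 and Cyr61 by 1.49) and Wwtr1, which encodes Taz, changed by -1.28. At E5.5, where Tead4 fell and 24.4% of all genes were called, 6 fell and none rose, with a median of -0.63 against 0.16. The largest changes were in Vgll3 (-4.77), the Yap target Cyr61 (-3.18), Ankrd1 (-3.13) and Vgll4 (-2.26). Ankrd1 passed the filter on low values only through the E4.5 libraries (6.37 to 9.97 TPM). It was at or below 0.399 TPM in every library of the other stages, so its rise and fall were largely set by that filter. None was called from E5.5 to E6.5, against 1.20% of all genes, and 4 of 17 had an unadjusted p below 0.05. At E7.5, where 12.6% of all genes were called, 4 rose (Vgll4 by 2.23, Amotl1 by 1.52, Lats2 by 1.20 and Vgll3 by 1.14, median 0.64 against 0.31). Members named in these lists are the called genes with the largest changes, at most 4 in a list and step.

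In the cultures, the 6 comparisons share groups and are not independent of each other. Each called at most 1 of the 6 factors, from 11541 genes tested. Tead4 was lower in ESC-derived 3D EpiSCs than in 2D EpiSCs (9.89% of genes called), and also in embryo-derived 3D EpiSCs than in 2D EpiSCs (8.82%). None of the 6 was called by limma between ESC-derived 3D EpiSCs and EpiLCs (12.4%), where 3 had an unadjusted p below 0.05. Nanog was higher in embryo-derived 3D EpiSCs than in EpiLCs (18.8%), Tead4 was higher in 2D EpiSCs than in EpiLCs (20.4%), and Sox2 was called between the 3D cultures (3.96%), with the ESC-derived one lower. Pou5f1, Sall4 and Utf1 were called in no culture comparison. The median of all genes moved by -0.209 between ESC-derived 3D and 2D EpiSCs, by 0.184 between 2D EpiSCs and EpiLCs, by 0.105 between embryo-derived 3D EpiSCs and EpiLCs and by -0.116 between the 3D cultures, and after rescaling by 0.021, -0.047, -0.015 and 0.006.

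**Figure D5:**
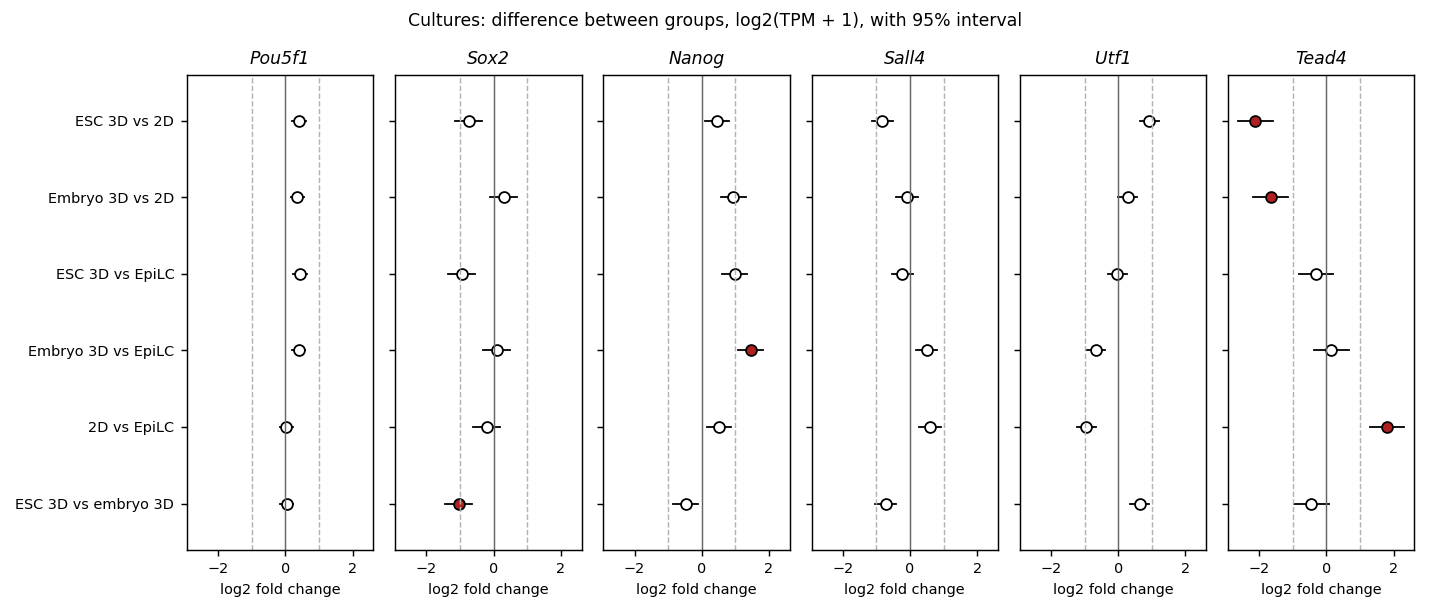
Log2 fold change of each factor between cultures, on log2(TPM + 1), with its 95% interval as a bar. Filled points are called, open points are not, and dashed lines mark 1 log2 unit. Tead4 was called in the comparisons of 2D EpiSCs with the ESC-derived (-2.11) and the embryo-derived 3D culture (-1.66) and with EpiLCs (1.80), Nanog once (1.46) and Sox2 once (-1.03), whose call is lost after rescaling (-0.90).

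Pou5f1 was at 1930, 1936 and 1754 TPM in ESC-derived and at 1702, 1871 and 1904 TPM in embryo-derived 3D EpiSCs. It was at 1393, 1355 and 1511 TPM in 2D EpiSCs and at 1309, 1506 and 1353 TPM in EpiLCs. The 3D libraries all lay above the 2D EpiSC and EpiLC libraries, by 0.36 to 0.43 on the log2 scale with adjusted p of 0.00294 to 0.0118. The 3D cultures did not differ beyond their spread, with a difference of 0.04 (95% interval -0.166 to 0.242), nor did 2D EpiSCs and EpiLCs (0.03, interval -0.172 to 0.236, and -0.21 after rescaling). In every culture Pou5f1 was among the most abundant protein-coding transcripts, with a median rank of 51 to 90.

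Sox2 was the factor called between the 3D cultures, a call that was lost after rescaling. It was at 56.8, 56.3 and 39.1 TPM in ESC-derived and at 99.5, 108 and 103 TPM in embryo-derived 3D EpiSCs, and at 87.5, 85.7 and 79.1 TPM in 2D EpiSCs. In EpiLCs it was at 99.0, 73.3 and 126 TPM, a spread that covered the 2D EpiSCs and the embryo-derived 3D EpiSCs. All ESC-derived 3D libraries lay below all others. Against embryo-derived 3D EpiSCs the log2 fold change was -1.03 (SE 0.184, 95% interval -1.438 to -0.632, adjusted p = 0.00337), against 2D EpiSCs it was -0.74 (adjusted p = 0.00792) and against EpiLCs -0.94 (adjusted p = 0.00158). Embryo-derived 3D EpiSCs differed from 2D EpiSCs by 0.30 (adjusted p = 0.24). The call between the 3D cultures is close to the threshold: after rescaling the difference was -0.90, without ESC-derived replicate 3 it was -0.86 with an adjusted p of 0.00375, and with near-identical replicates averaged it was -1.11 with an adjusted p of 0.0536. Against EpiLCs, the difference passed 1 log2 unit without ESC-derived replicate 1 or 2 (-1.03 each) or without EpiLC replicate 2 (-1.14). Origin and cell line of the 3D cultures changed together and cannot be told apart. Among ESC-derived 3D EpiSCs the ratio of Pou5f1 to Sox2 was 37.7 ± 6.15 (SD, n = 3), against 17.6 ± 0.749 for the embryo-derived ones, 16.9 ± 1.87 in 2D EpiSCs and 14.8 ± 5.09 in EpiLCs, so that the ESC-derived libraries (34 to 44.8) stood above all the others.

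Nanog was at 240, 176 and 183 TPM in embryo-derived and at 153, 148 and 125 TPM in ESC-derived 3D EpiSCs, at 92.7, 89.5 and 131 TPM in 2D EpiSCs and at 78.8, 72.7 and 63.7 TPM in EpiLCs. The order of the means was the same as the order of these groups, and only the ESC-derived 3D and the 2D EpiSCs overlapped. Embryo-derived 3D EpiSCs exceeded EpiLCs by 1.46 (SE 0.166, adjusted p = 2.01e-05), 2.75-fold, and by 1.33 after rescaling. Against 2D EpiSCs they were higher by 0.94 (adjusted p = 0.00133), short of a call, which it passed after rescaling (1.05), without 2D EpiSC replicate 3 (1.11) or without embryo-derived replicate 2 (1.02). ESC-derived 3D EpiSCs exceeded EpiLCs by 0.97 (adjusted p = 0.000627), which passed 1 without ESC-derived replicate 3 (1.06) or EpiLC replicate 1 (1.04), and 2D EpiSCs by 0.46 (adjusted p = 0.0423). The ratio of Pou5f1 to Nanog was 9.37 ± 1.98 for the embryo-derived and 13.3 ± 0.706 for the ESC-derived 3D culture, 13.9 ± 2.04 in 2D EpiSCs and 19.5 ± 2.53 in EpiLCs.

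Sall4 was higher in 2D and embryo-derived 3D EpiSCs, and Utf1 in EpiLCs and ESC-derived 3D EpiSCs, though neither was called. Sall4 was at 200, 183 and 173 TPM in 2D EpiSCs, at 176, 173 and 170 TPM in embryo-derived 3D EpiSCs, at 125, 95.4 and 154 TPM in EpiLCs and at 110, 108 and 96.5 TPM in ESC-derived 3D EpiSCs. Utf1 was at 252, 222 and 240 TPM in 2D EpiSCs and at 242, 313 and 320 TPM in embryo-derived 3D EpiSCs, and at 461, 522 and 406 TPM in EpiLCs and 486, 461 and 411 TPM in ESC-derived 3D EpiSCs. For Sall4 the 2D and the embryo-derived cultures overlapped, as did EpiLCs and ESC-derived 3D EpiSCs, and the same pairs overlapped for Utf1. ESC-derived 3D EpiSCs differed from 2D EpiSCs by -0.82 in Sall4 (adjusted p = 0.00126) and by 0.92 in Utf1 (adjusted p = 0.00031), and from embryo-derived 3D EpiSCs by -0.72 (adjusted p = 0.00667) and 0.64 (adjusted p = 0.00734). The Utf1 differences come close to a call: that from 2D EpiSCs was 1.18 after rescaling, and that between 2D EpiSCs and EpiLCs, -0.95 (adjusted p = 8.38e-05), was -1.19 after rescaling and -1.04 without EpiLC replicate 3. Over the 4 culture means the correlation of Sall4 with Utf1 was -0.96, and over the 5 embryo means -0.53.

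Tead4 was low in all cultures and highest in 2D EpiSCs. It was at 7.91, 9.30 and 9.05 TPM there, at 2.82, 1.75 and 1.80 TPM in embryo-derived 3D EpiSCs, at 2.14, 2.62 and 0.909 TPM in EpiLCs and at 0.832, 1.16 and 1.90 TPM in ESC-derived 3D EpiSCs. The 2D libraries lay above all others and the 3 other cultures overlapped. Against 2D EpiSCs it was lower by a log2 fold change of -2.11 in ESC-derived (SE 0.235, adjusted p = 6.31e-05) and of -1.66 in embryo-derived 3D EpiSCs (adjusted p = 0.000295), and 2D EpiSCs exceeded EpiLCs by 1.80 (adjusted p = 5.27e-05). At these levels the pseudocount holds the size down: with 0.1 in place of 1, the differences were -2.73, -2.02 and 2.27. The trophectoderm factors Cdx2 and Elf5 were at or below 0.265 TPM on average in every culture, while Gata3 was at a mean of 7.78 TPM in 2D EpiSCs and at or below 0.42 TPM elsewhere. The trophectoderm marker list summed to 621 to 786 TPM in 2D EpiSCs, 254 to 397 TPM in the 3D cultures and 50 to 69 TPM in EpiLCs. The endoderm marker list summed to 77.9 to 102 TPM in 2D EpiSCs, 75.1 to 138 TPM in embryo-derived and 32.9 to 34.8 TPM in ESC-derived 3D EpiSCs, and 8.02 to 12.3 TPM in EpiLCs. The part of such cells in the level of Tead4 was not tested.

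Of the coactivators and Hippo genes, 16 were tested in the cultures. Against 2D EpiSCs, 6 fell and none rose in ESC-derived 3D EpiSCs (median -0.52 against -0.21 over all genes), led by Lats2 (-2.26), Vgll3 (-2.00), Amotl2 (-1.53) and Cyr61 (-1.42), and 4 fell and none rose in embryo-derived 3D EpiSCs (median -0.26 against -0.08), namely Ctgf (-2.51), Vgll3 (-1.83), Cyr61 (-1.60) and Lats2 (-1.38). Called genes as a whole were mostly lower in these comparisons, 93.6% of the 9.89% called in the first and 87.9% of the 8.82% called in the second. In 2D EpiSCs, 8 rose and none fell against EpiLCs (median 1.13 against 0.18), led by Cyr61 (4.98), Lats2 (2.40), Amotl1 (2.12) and Amotl2 (1.99), where 20.4% of all genes were called and 25.2% of those were lower. Vgll3, counted in all of these comparisons, passed the filter on low values only through the 2D EpiSC libraries (5.14 to 5.33 TPM). It was at or below 1.38 TPM in every other culture library, so its calls were largely set by that filter. Against EpiLCs, 2 rose in ESC-derived (median 0.15, Cyr61 by 3.56 and Amotl1 by 1.04), and in embryo-derived 3D EpiSCs 6 rose and 1 fell (median 0.62, Cyr61 3.37, Amotl1 1.22, Wwtr1 1.19 and Ctgf -1.18). The share of all genes called was 12.4% and 18.8%. Between the 3D cultures, Ctgf rose by 1.98 and Wwtr1 changed by -1.03 in the ESC-derived ones (median -0.22), where 3.96% of all genes were called. Tead1 followed the same order as Tead4, at -2.28 and -1.54 in ESC-derived and embryo-derived 3D EpiSCs against 2D EpiSCs and at 1.91 in 2D EpiSCs against EpiLCs. Tead2 was the most abundant of the 4 Tead genes in every culture, at means of 178 to 290 TPM.

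Of the other relatives, 8 were tested in the cultures. With Tead1, Tead3 was lower in ESC-derived 3D than in 2D EpiSCs (-1.09) and higher in 2D EpiSCs than in EpiLCs (1.31), where Sox15 (-1.79) and Pou3f1 (-1.29) were lower. The list had 2 called lower and none higher in ESC-derived 3D against 2D EpiSCs (median -0.59), and 1 lower in embryo-derived 3D against 2D EpiSCs (-0.53). There the median of all genes was -0.21 and -0.08, and 9.89% and 8.82% of them were called. Against EpiLCs, Sall1 (-1.92) and Pou3f1 (-1.53) were lower in ESC-derived 3D EpiSCs (median -0.33), and Pou3f1 (-2.29), Sox15 (-2.17) and Sall1 (-1.48) in embryo-derived ones (median -0.02), where 12.4% and 18.8% of all genes were called. The median for 2D EpiSCs against EpiLCs was 0.28, with 20.4% of all genes called. Between the 3D cultures, where 3.96% of all genes were called, Sox15 alone was called (1.22, median -0.24).

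Of the Oct4 and Sox2 target list, 9 were tested in the cultures, and Pou5f1 itself differed from EpiLCs by 0.03 to 0.43. Against EpiLCs, 5 fell and 2 rose in ESC-derived 3D EpiSCs (median -2.04 against 0.01 over all genes), 5 fell and 3 rose in embryo-derived ones (-2.28 against 0.10) and 4 fell in 2D EpiSCs (-0.50 against 0.18). The share of all genes called was 12.4%, 18.8% and 20.4%, in that order. The genes that fell in all 3 comparisons were Dppa4 (-6.48, -6.69 and -6.54), Fgf4 (-3.14, -4.22 and -3.46), Esrrb (-2.85, -2.92 and -2.18) and Fbxo15 (-2.64, -2.77 and -2.16), the comparisons sharing their EpiLC libraries. Against 2D EpiSCs, Klf2 (2.10 and 2.28) and Klf4 (1.92 and 1.95) rose and Spp1 (-1.70 and -1.94) fell in ESC-derived and embryo-derived 3D EpiSCs, and Lefty1 rose by 1.08 in the latter. Thus 3 and 4 of 9 were called (medians 0.06 and -0.15), against 9.89% and 8.82% of all genes. Between the 3D cultures, Lefty1 was lower (-1.30) and Fgf4 higher (1.08) in the ESC-derived ones (median 0.07), where 3.96% of all genes were called. Of the 19 partner proteins tested, Chd3 was the one called most often, at -1.13 in ESC-derived 3D against 2D EpiSCs (median -0.13) and at 1.24, 1.92 and 2.37 in ESC-derived 3D EpiSCs, in the embryo-derived ones and in 2D EpiSCs against EpiLCs (medians -0.19, -0.15 and -0.03), with Mta1 (1.11) in the second of these. The share of all genes called was 9.89% in the comparison of ESC-derived 3D with 2D EpiSCs and 12.4%, 18.8% and 20.4% in those with EpiLCs. None was called by limma between embryo-derived 3D and 2D EpiSCs (median -0.03) or between the 3D cultures (-0.11), against 8.82% and 3.96% of all genes. In these comparisons, 2 and 6 had an unadjusted p below 0.05.

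Side by side and without a test, since the kits differ, group means of Pou5f1 were 1389.3 to 1873.5 TPM in the cultures and 251.3 to 721.3 TPM in the embryo, and those of Nanog 71.7 to 199.8 TPM and 7.08 to 87.9 TPM. Sox2 was at 50.7 to 104 TPM in the cultures and 32.9 to 52.3 TPM in the embryo, and Utf1 at 238 to 463 TPM and 8.56 to 258 TPM. The highest mean of Sall4 was in the embryo, with 105 to 185 TPM in the cultures against 118 to 256 TPM, as was that of Tead4, with 1.3 to 8.76 TPM against 8.16 to 101 TPM. Rescaling all 27 libraries together multiplied these levels by 0.745 to 1.3.

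Genes with the pattern most like each factor were ranked by Pearson's r over the 9 group means of log2(TPM + 1), centred within each kit, among 12592 genes. These points share libraries and stage, and the values are descriptions. For Pou5f1 the nearest were Foxd3 (r = 0.944), a forkhead factor of the epiblast, and Lefty1 (0.928), and Foxd3 had means of 31.8 TPM at E6.5 and 0.0394 TPM at E7.5. For Nanog they were Spry2 (0.967), an inhibitor of FGF signalling, Fam98c (0.931) and Foxred2 (0.921), and for Sox2 they were Usp8 (0.936), Gm49396 (0.917) and Tmem131 (0.914). Sall4 was most like Tulp4 (0.976), Steap1 (0.974) and Cyp4f17 (0.971), Utf1 most like Slc35f2 (0.983), Galnt3 (0.962) and Hist1h2aa (0.953), and Tead4 most like Ppard (0.984), Myof (0.984) and Tex264 (0.981). Some of these genes were at low levels. Hist1h2aa was at 0 in the EpiSC cultures and at a mean of 0.273 TPM in EpiLCs, so its likeness comes mainly from the embryo. Culture libraries were made by poly-A capture and embryo libraries from total RNA, so kit and level cannot be told apart for this gene. Steap1 had means of 0 to 1.15 TPM in the embryo, and Cyp4f17 had group means of 0.886 to 6.87 TPM. Among the 6 themselves, Pou5f1 was most like Utf1 (r = 0.79, with 0.83 over the embryo and 0.14 over the culture means) and Nanog (0.70, with 0.68 and 0.88), whereas with Sox2, its partner protein, r was -0.12.

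Genes that overlap the factors, and their pseudogenes, were at low levels. The highest TPM in any of the 27 libraries was 1.97 for Gm19553, which overlaps Pou5f1 on the other strand, 2.91 for Sox2ot, which contains Sox2 on the same strand, 1.32 for the pseudogene Nanog-ps1, 1.52 for Gm14261 at Sall4 and 1.15 for Gm21893 at Tead4. Nanog-ps2 was listed at 0 in all libraries. Sox21, a separate Sox gene whose symbol starts like that of Sox2, reached 13.7 TPM. Sox2ot and Sox2 share a strand, so their reads can be told apart only outside the overlap.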

How the data were processed

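RNA was measured in 27 bulk libraries, 15 from embryos (a total RNA kit with depletion of ribosomal cDNA) and 12 from cultures (poly-A capture). Reads had been trimmed (cutadapt 2.4), mapped by STAR to mm10 and summarised over GENCODE VM19 genes by StringTie, and the authors deposited TPM, which sum to 1000000 in each library and keep no read depth. Here, lines with the same identifier were summed and empty cells (56 lines) set to 0. Biotypes came from GENCODE M21.

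Embryo and culture libraries were fitted separately with limma 3.58.1 in R 4.3.3 on log2(TPM + 1), over autosomal protein-coding genes with a TPM above 2 in at least 3 libraries of the fit, with Benjamini-Hochberg adjustment over those genes. The study used a count model, which TPM does not allow. A call needed an absolute log2 fold change over 1 besides an adjusted p under 0.05. The script was tested on simulated data. The labels do not say that replicates came from separate cultures or litters, so p-values may measure technical spread. Alternatives were a pseudocount of 0.1, no filter, median-of-ratios scaling, only the compared groups, all 27 libraries in 1 fit, a replicate block, an intensity trend, near-identical replicates (median difference under 0.1) averaged, and leaving out each replicate. Lists were described by counts and medians. The named genes were the 6 factors, the 3 genes most like each, genes overlapping a factor or sharing its symbol (some items are not reported here), and from each list at most 4 called genes per comparison by size of change. The factors and lists were chosen with earlier results of these data known. The promoter windows came from RefSeq. Figures used Python 3.11.15 and matplotlib 3.10.9.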

Additional observations from a re-analysis of the deposited data

Results flagged for a closer look

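Sox2 was past the threshold in the direct test between the 3D cultures, which share their 2D control. Against 2D EpiSCs, Sox2 differed by -0.74 in ESC-derived (adjusted p = 0.00792) and by 0.30 in embryo-derived 3D EpiSCs (adjusted p = 0.24), so that opposite directions are not shown, and the difference between the 3D cultures was -1.03 (limma, SE 0.184, adjusted p = 0.00337), lower in 3 of 3 ESC-derived libraries. Over all alternatives it ranged from -1.12 to -0.86, with adjusted p from 4.02e-05 to 0.0536. Sall4 had a like set of values, -0.82 and -0.09 against 2D EpiSCs and -0.72 between the 3D cultures (limma, adjusted p = 0.00667), short of 1 log2 unit.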

How the results depend on the processing

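Of 60 differences (6 factors in 10 comparisons) under 838 alternatives, 802 kept their direction and their side of the threshold, 12 passed it anew, 3 no longer passed it and 21 changed sign, all of these for differences that were not called. In the embryo, the number of factors called was the same under every alternative. Over alternatives, Nanog from E3.5 to E4.5 ranged from -2.76 to -2.41, Tead4 from E4.5 to E5.5 from -3.37 to -3.18, and Utf1 from E6.5 to E7.5 from -4.66 to -4.15. The replicate numbers did not pair the samples (mean correlation of same-numbered deviations -0.0166 in the embryo and -0.0299 in the cultures), and with the replicate block the number of factors called was unchanged in every comparison, 3 at the step to E7.5 for example.

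With median-of-ratios scaling, 2 factors were called between ESC-derived 3D and 2D EpiSCs (Utf1 added at 1.18), 2 between embryo-derived 3D and 2D EpiSCs (Nanog added), 2 between 2D EpiSCs and EpiLCs (Utf1 added), and 0 between the 3D cultures. With near-identical replicates averaged, 1 was called between ESC-derived 3D EpiSCs and EpiLCs (Sox2, -1.03) and 0 between the 3D cultures. Leaving out a replicate gave 1 to 2 calls between embryo-derived 3D and 2D EpiSCs, 0 to 1 between ESC-derived 3D EpiSCs and EpiLCs, 1 to 2 between 2D EpiSCs and EpiLCs and 0 to 1 between the 3D cultures.

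Under scaling, the sign changed for Nanog from E5.5 to E6.5 (0.05), for Sox2 (-0.08), Sall4 (-0.09) and Tead4 (-0.24) from E6.5 to E7.5, for Sall4 between embryo-derived 3D and 2D EpiSCs (0.02), for Sox2 between embryo-derived 3D EpiSCs and EpiLCs (-0.03) and for Pou5f1 between 2D EpiSCs and EpiLCs (-0.21). Leaving out a replicate gave both signs for Nanog (-0.13 to 0.03) and Sall4 (-0.04 to 0.10) from E5.5 to E6.5, for Utf1 between ESC-derived 3D EpiSCs and EpiLCs (-0.12 to 0.06), for Sox2 (-0.11 to 0.28) and Tead4 (-0.13 to 0.33) between embryo-derived 3D EpiSCs and EpiLCs, and for Pou5f1 between 2D EpiSCs and EpiLCs (-0.01 to 0.09) and between the 3D cultures (-0.01 to 0.08). The cause was not tested. Among all genes called, scaling moved the share lower from 15.4% to 35.3% at the step to E7.5, from 93.6% to 81.5% between ESC-derived 3D and 2D EpiSCs, from 25.2% to 38.9% between 2D EpiSCs and EpiLCs and from 50.1% to 33.9% between the 3D cultures. The number of all genes called went from 142 to 262 at the step to E6.5 with a pseudocount of 0.1, and between the 3D cultures from 457 to 719. With near-identical replicates averaged it went from 457 to 271 there, and from 1141 to 728 between ESC-derived 3D and 2D EpiSCs. The depth of each library is not kept in TPM, and Tead4 in the cultures is near the pseudocount.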

Other observations

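Nanog lies in a cluster of genes of early development, and the expressed protein-coding genes within 100 kb of it were Slc2a3, Dppa3 and Gdf3, a set fixed by distance after the values of Nanog were seen. Dppa3, a maternal and germ cell factor, had means of 355, 34.1, 6.83, 4.01 and 1.02 TPM from E3.5 to E7.5. Gdf3, a TGF-beta family ligand, had means of 12.7 and 17 TPM at E3.5 and E4.5 and of 2.95 and 1.35 TPM at E5.5 and E6.5. Neither followed Nanog in the 3D cultures, where Nanog was highest and Dppa3 had means of 0.03 TPM or less. Gdf3 was at a mean of 63.6 TPM in EpiLCs, the culture with the least Nanog. Slc2a3, a glucose transporter gene 13.2 kb away, ran from 151 TPM at E3.5 to 766 TPM at E7.5 and had a mean of 971 TPM in 2D EpiSCs. No test was run on these neighbours.

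No protein-coding gene lies within 100 kb of Sox2 in the table, and Atp9a, 5.92 kb from Sall4, had a mean of 28.2 TPM at E3.5 and 5.69, 3.81, 6.3 and 6.67 TPM from E4.5 to E7.5, without the higher levels that Sall4 had after E4.5.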
